A study of Taeniopygia guttata with 24 samples.

Results

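The mitosis genes described here were set by name as 10 symbols, MKI67, TOP2A, CDK1, CCNA2, CCNB2, BUB1, AURKA, CENPE, CENPF and KIF11. Symbols were looked up in the supplementary tables of the study and matched to the count table by Ensembl identifier, which found 9 of the 10, and CENPF was not analysed here. The count table holds 18618 genes, of which 13891 passed the filter on low counts, and all 9 found genes were among those. The telencephalon of the zebra finch, the part of the forebrain that holds the song control regions, was sampled whole at 4 ages, 1 dph (days post hatch), 20 dph, 65 dph and adulthood, which the sample descriptions give as over 170 dph. The methods of the study give a lower minimum age for the adults, so that their age is uncertain. RNA of 3 telencephalons of birds of the same sex was mixed in equal parts into 1 pool, and 3 male and 3 female pools were sequenced at each of the 4 ages, 24 in all. The birds were untreated, and no mutant or transgenic line was used. A pool averages over its birds, so that p-values measure the spread between pools.

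Dividing cells make the products of these genes in the last phases of the cell cycle and destroy many of them once division is over. The set spans the kinase and cyclins that drive entry into mitosis, the enzyme that untangles DNA, the surveillance of chromosome attachment and the motors that build the spindle. In the bird brain most neurons are born before or shortly after hatching, and the walls of the lateral ventricles keep dividing cells that supply new neurons to the adult telencephalon. In RNA of a whole telencephalon, fewer dividing cells, a smaller share of them in a larger tissue and less RNA per dividing cell cannot be told apart.

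Between 16680575 and 28772178 reads per pool were counted on genes. Levels are given as counts per 1000000 reads (cpm) after TMM normalization, and 3 reads, used here as the floor of detection, were worth between 0.103 and 0.191 cpm. The median log2 change of all tested genes between the later ages and 1 dph was -0.02 with TMM and -0.27 with library totals alone, so that a change with age is meant relative to the middle of all genes. The counts carry no gene lengths, so that the levels of single genes were compared within a gene. Sums, shares and ratios of several genes, given below, depend on the lengths of those genes. The sex of the adult pools was checked on 34 Z-linked genes that separated all male from all female pools at the 3 younger ages, since males carry ZZ and females ZW. Relative to the mean of the younger female pools, the median level of these genes was between 1.81 and 2.08 in the 9 younger male pools and between 0.946 and 1.09 in the 9 younger female pools. It was 1.42, 1.93 and 1.61 in the 3 adult pools labelled male and 1.25, 1.42 and 1.37 in the 3 labelled female. Thus 5 of the 6 adult pools lay between the ranges of the younger males and females, and these genes, which were chosen for their difference at the younger ages, could not check the labels of the adults. These levels cannot tell a Z-linked sex difference that narrows with age from a wrong sex label of some birds within a pool. The labels of whole adult pools could not be checked either, and the labels are used as given.

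All 9 mitosis genes were most abundant at 1 dph and fell steeply by 20 dph. Their summed level was 374 ± 45.2 cpm at 1 dph and then 45.9 ± 4.54 at 20 dph, 26.4 ± 2.47 at 65 dph and 22.9 ± 1.83 in adults (SD, n = 6 pools at each age). The test of age compared the mean of the 3 later ages with 1 dph in stages, with an omnibus test over age and sex first and Holm's method within a gene second. It called all 9 genes lower, where 37.2% of the 13891 tested genes were called lower. The median log2 fold change of the 9 genes was -4.02 (range -5.16 to -1.95), beside -0.02 over all tested genes. This count is no independent evidence of the fall. Symbols were known here mostly for genes that change, and the 9 genes were found in a shortened list that holds the 1654 genes with the lowest p-values of the study's own omnibus test. The same holds for the other lists of genes named below.

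**Figure D1:**
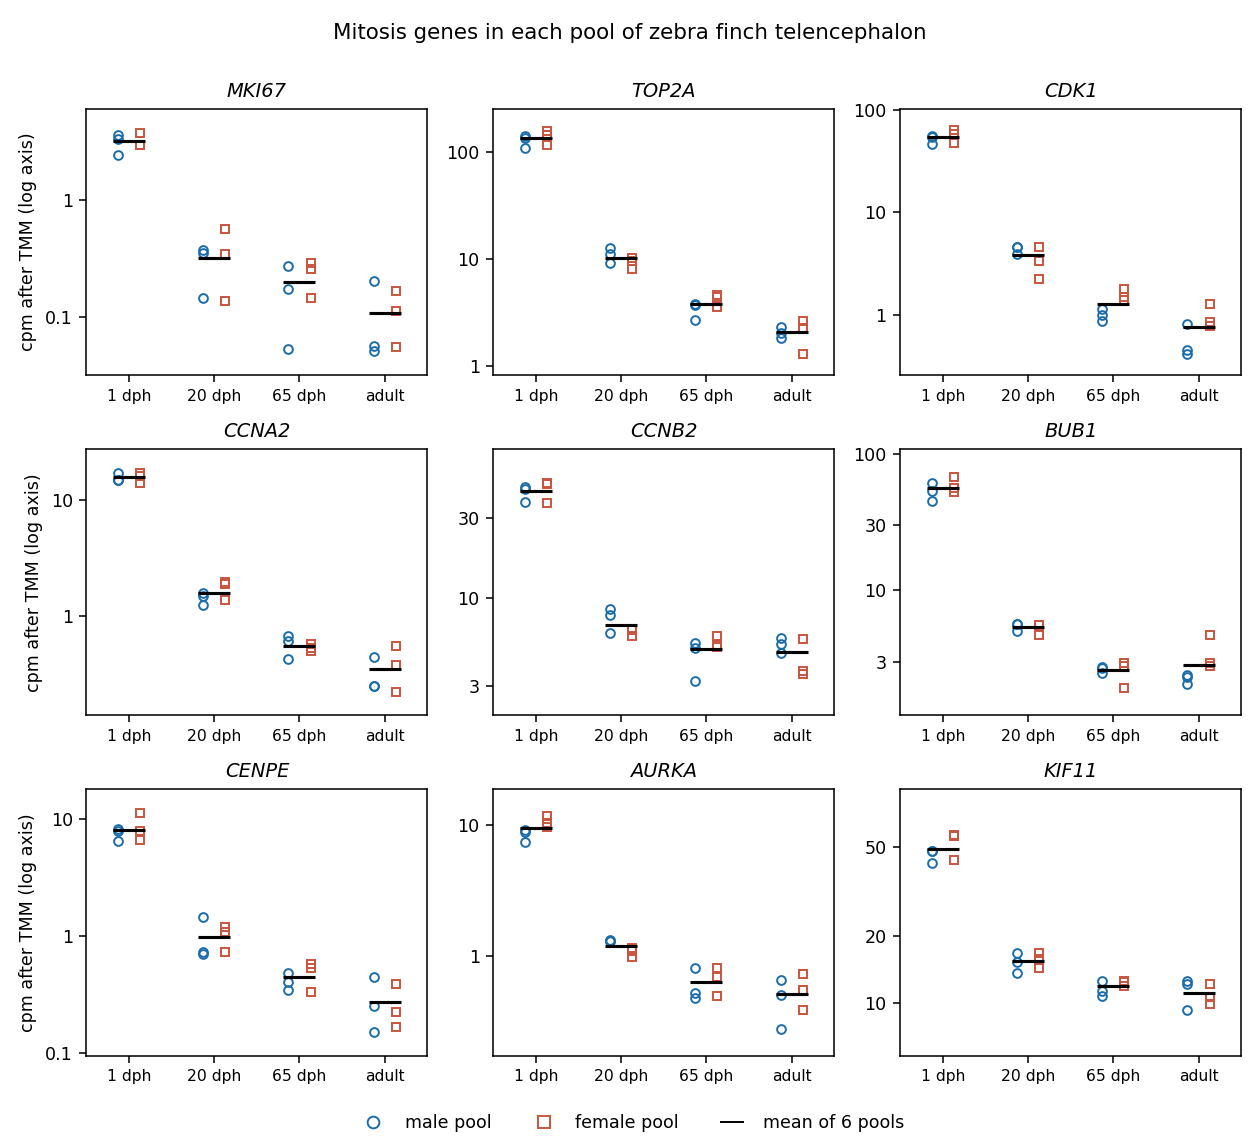
Level of each of the 9 mitosis genes in each of the 24 pools, in cpm after TMM on a log axis that differs between panels, against age. Circles are male pools, squares are female pools and bars are means of the 6 pools of an age. The 6 pools at 20 dph lie below the 6 pools at 1 dph for all 9 genes, and KIF11 and CCNB2 level off highest relative to their start.

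Each step was tested in the same fit with Benjamini-Hochberg adjustment over all 13891 genes. From 1 to 20 dph all 9 genes fell, with a median log2 fold change of -3.30, where 38.5% of tested genes were called lower and the median of all genes was -0.03. For all 9 genes the 6 pools at 20 dph lay below the 6 pools at 1 dph, a pattern found in 27.4% of tested genes. The counts and overlaps at each step are no independent evidence of a fall, since the 9 genes were found in the shortened list named above. MKI67 could also pass the filter only by being higher at 1 dph. From 20 to 65 dph all 9 estimates were negative and 8 of 9 genes were called lower, with a median of -1.05 over the 9 genes. Of all tested genes 15.4% were called lower. At this step the pools did not overlap for 7 of the 9 genes (7.41% of tested genes), with MKI67 and CCNB2 as the exceptions. From 65 dph to adulthood 8 of 9 estimates were negative and 2 genes were called lower, TOP2A and CDK1, where 10.7% of tested genes were called lower. The median of the 9 genes was -0.67 at this last step, and TOP2A was the only gene whose pools did not overlap (5.11% of tested genes). In fits of a single sex, with 3 pools at each age, the log2 fold change of TOP2A at the last step was -0.71 in males and -1.05 in females (edgeR adjusted p = 0.0581 and 0.0165). That of CDK1 was -0.84 in males and -0.67 in females (edgeR adjusted p = 0.0712 and 0.221).

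**Figure D2:**
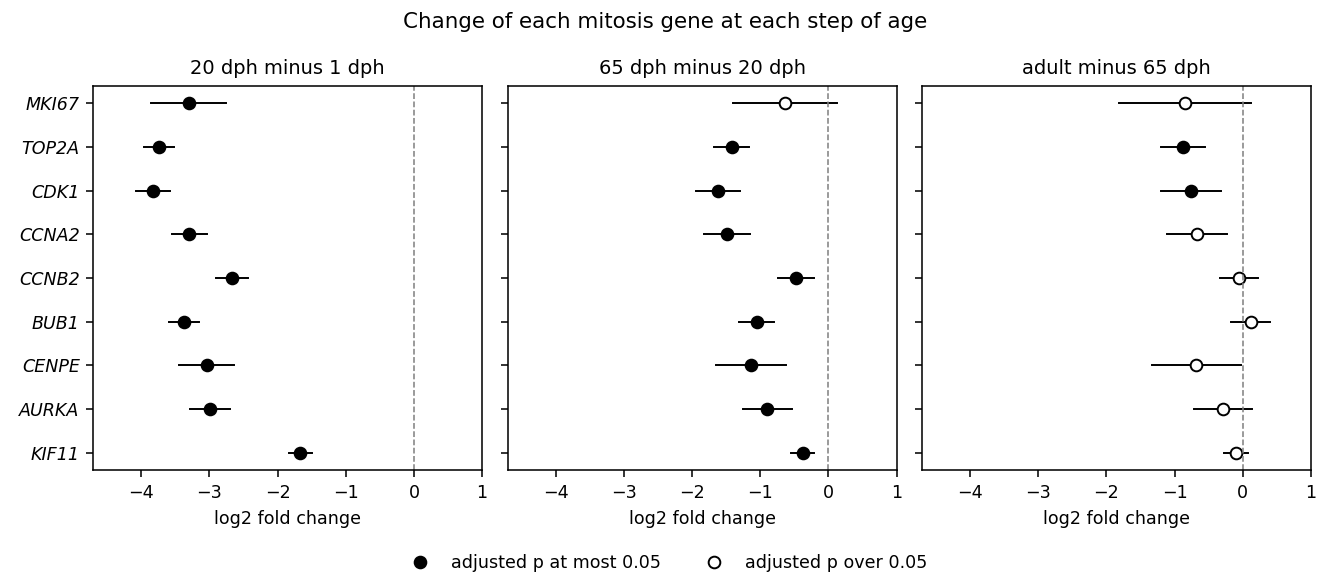
Log2 fold change of each of the 9 genes at each step of age, later minus earlier age, with both sexes averaged. Filled points have an edgeR adjusted p of at most 0.05 and bars are 95% intervals taken as 1.96 standard errors on either side. These bars use a normal value and can be too narrow, also for genes other than CCNA2 and AURKA. The bar of CENPE at the last step leaves out 0, although its unadjusted p was 0.0517 in edgeR's test. All 9 points are filled at the first step, 8 at the second and 2 at the third.

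MKI67 (ENSTGUG00000011586, chromosome 6) encodes Ki-67, the coat of mitotic chromosomes that pathologists stain to find cycling cells. It had between 2.43 and 3.73 cpm at 1 dph (median 3.12), between 0.137 and 0.562 at 20 dph (median 0.347), between 0.0539 and 0.290 at 65 dph (median 0.215) and between 0.0510 and 0.202 in adults (median 0.0846). The later pools thus sat close to the floor of detection, and 67 to 105 reads per pool at 1 dph stood against 1 to 4 reads per pool in adults. The fall by 20 dph was 9.88-fold (log2 fold change -3.31, SE 0.28, edgeR adjusted p = 2.63e-10). From 20 to 65 dph the log2 fold change was -0.64 with an edgeR adjusted p of 0.235, and from 65 dph to adulthood it was -0.85 with an adjusted p of 0.231. No difference was detectable at this depth for either step. MKI67 passed the filter of 1 cpm through its 6 pools at 1 dph only, so that it could pass only by being higher there.

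TOP2A (ENSTGUG00000002312, chromosome 27), the topoisomerase that untangles sister chromatids, had between 109 and 159 cpm at 1 dph (median 138), between 8.01 and 12.7 at 20 dph (median 9.89), between 2.66 and 4.63 at 65 dph (median 3.72) and between 1.30 and 2.59 in adults (median 2.14). The 6 pools of each age lay below those of the age before at all 3 steps, which held for no other of the 9 genes. The fall was 13.3-fold by 20 dph (log2 fold change -3.73, SE 0.11, edgeR adjusted p = 1.81e-18), a further 2.67-fold by 65 dph (-1.42, SE 0.13, adjusted p = 3.16e-08) and a further 1.84-fold in adults (-0.88, SE 0.17, adjusted p = 0.000684).

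CDK1 (ENSTGUG00000005332, chromosome 6) is the kinase that starts mitosis once a cyclin is bound. Its level ranged from 46.9 to 64.5 cpm at 1 dph (median 55.4), from 2.24 to 4.60 at 20 dph (median 4.24), from 0.863 to 1.78 at 65 dph (median 1.27) and from 0.408 to 1.27 in adults (median 0.795). Its fall by 20 dph was the largest estimate of the 9 genes, 14.2-fold (log2 fold change -3.83, SE 0.13, edgeR adjusted p = 1.52e-17), and again by 65 dph, 3.07-fold (-1.62, SE 0.17, adjusted p = 1.62e-07). From 65 dph to adulthood it fell 1.69-fold (-0.76, SE 0.23, adjusted p = 0.0195), although adult pools and 65 dph pools overlapped. This last call was lost without male replicate 1 at 65 dph (log2 fold change -0.70, edgeR adjusted p = 0.0515) and without male replicate 3 in adults (-0.66, adjusted p = 0.0604).

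CCNA2 (ENSTGUG00000001941, chromosome 4), cyclin A2, which acts in DNA replication and at the entry into mitosis, had between 13.9 and 17.1 cpm at 1 dph (median 15.5), between 1.24 and 1.97 at 20 dph (median 1.54), between 0.431 and 0.680 at 65 dph (median 0.559) and between 0.226 and 0.558 in adults (median 0.321). Its log2 fold changes were -3.30 (SE 0.13), -1.49 (SE 0.17) and -0.67 (SE 0.23) over the 3 steps, with edgeR adjusted p-values of 3.54e-16, 8.63e-07 and 0.066. The last of these passed when male replicate 3 at 65 dph was left out (adjusted p = 0.0484), and likewise without female replicate 1 (0.0390) or male replicate 1 (0.0394) in adults. CCNB2 (ENSTGUG00000005982, chromosome 10), cyclin B2, which binds CDK1 in mitosis, had between 36.8 and 48.6 cpm at 1 dph (median 45.6), between 5.90 and 8.55 at 20 dph (median 6.49), between 3.18 and 5.92 at 65 dph (median 5.20) and between 3.52 and 5.76 in adults (median 5.02). It fell at the first 2 steps, by log2 fold changes of -2.67 (SE 0.12, edgeR adjusted p = 4.13e-15) and -0.48 (SE 0.13, adjusted p = 0.00858). From 65 dph to adulthood its pools overlapped and the log2 fold change was -0.06 (SE 0.14, edgeR adjusted p = 0.819). Within a pool the reads of CCNB2 outnumbered those of CCNA2 by a median of 2.75 at 1 dph and then 4.83 at 20 dph, 9.31 at 65 dph and 15.5 in adults. Such a ratio depends on the lengths of both genes, but its change with age does not, and no scaling between pools enters it.

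BUB1 and CENPE act at the kinetochore, where chromosomes meet the spindle. BUB1 (ENSTGUG00000007339, chromosome 3), a kinase of the checkpoint that delays the separation of chromosomes, had between 44.7 and 67.6 cpm at 1 dph (median 54.5), between 4.74 and 5.66 at 20 dph (median 5.59), between 1.94 and 2.95 at 65 dph (median 2.73) and between 2.07 and 4.69 in adults (median 2.59). It was the only one of the 9 genes with a mean in adults above that at 65 dph. That log2 fold change was 0.11 (SE 0.15, edgeR adjusted p = 0.625), and it was -0.03 without female replicate 3 in adults, which held the highest adult value. At the first 2 steps BUB1 fell 10.3-fold (edgeR adjusted p = 1.52e-17) and 2.07-fold (adjusted p = 2.37e-06). CENPE (ENSTGUG00000003736, chromosome 4), a motor that carries chromosomes to the middle of the spindle, had between 6.49 and 11.2 cpm at 1 dph (median 7.83), between 0.703 and 1.45 at 20 dph (median 0.904), between 0.331 and 0.573 at 65 dph (median 0.447) and between 0.153 and 0.450 in adults (median 0.239). It fell 8.22-fold and 2.19-fold at the first 2 steps (edgeR adjusted p = 4.48e-12 and 0.00213), and the last step had an adjusted p of 0.15 at 3 to 8 reads per adult pool.

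AURKA and KIF11 act on the spindle poles and fibres. AURKA (ENSTGUG00000008457, chromosome 20), the Aurora A kinase of the centrosome, had between 7.47 and 11.8 cpm at 1 dph (median 9.40), between 0.983 and 1.32 at 20 dph (median 1.23), between 0.485 and 0.823 at 65 dph (median 0.612) and between 0.281 and 0.734 in adults (median 0.531). It fell 7.93-fold and 1.86-fold at the first 2 steps (edgeR adjusted p = 2.20e-14 and 0.000797), with an adjusted p of 0.435 at the last. KIF11 (ENSTGUG00000008927, chromosome 6), the motor that pushes the poles apart and in rodent neurons also restrains the growth of axons, had between 42.3 and 56.8 cpm at 1 dph (median 48.1), between 13.7 and 16.9 at 20 dph (median 15.6), between 10.8 and 12.6 at 65 dph (median 12.2) and between 9.34 and 12.6 in adults (median 11.4). Its falls at both early steps were the smallest estimates of the 9 genes, 3.17-fold by 20 dph (log2 fold change -1.66, SE 0.08, edgeR adjusted p = 1.95e-14) and 1.30-fold by 65 dph (-0.38, SE 0.09, adjusted p = 0.00211). From 65 dph to adulthood its log2 fold change was -0.09 (SE 0.09, adjusted p = 0.488).

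The share of the 1 dph level left in adults differed widely between the genes. CDK1 retained 1.39% ± 0.572 of its mean level at 1 dph and TOP2A 1.53% ± 0.336 (SD over the 6 adult pools, for these and the next values). CCNA2 retained 2.27% ± 0.852, CENPE 3.40% ± 1.50 and MKI67 3.42% ± 2.07. The value of MKI67 rests on 12 reads in 6 pools, which put an exact 95% Poisson interval of 1.78% to 6.01% around their pooled share, for counting error only. BUB1 retained 5.14% ± 1.70 and AURKA 5.45% ± 1.75, whereas CCNB2 retained 10.9% ± 2.27 and KIF11 22.7% ± 2.82. In this order the ranges of CDK1 to MKI67 overlapped each other, as did those of MKI67, BUB1 and AURKA. The highest BUB1 pool, at 8.42%, also lay above the lowest CCNB2 pool. The adult pools of CCNB2 ranged from 8.03% to 13.2%, all below the 6 of KIF11, which reached 25.7%. Relative to 1 dph birds of the same sex, CDK1 retained 1.06% ± 0.418 in adult pools labelled male and 1.70% ± 0.465 in those labelled female (SD, n = 3 each). The values were 4.26% ± 0.318 and 5.94% ± 1.81 for BUB1 and 24.7% ± 3.89 and 20.9% ± 2.28 for KIF11, males before females. Both sexes thus retained least of CDK1 or TOP2A and most of KIF11. The first step made up between 60.5% (CCNA2) and 83.3% (CCNB2) of the whole log2 fall from 1 dph to adulthood.

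**Figure D3:**
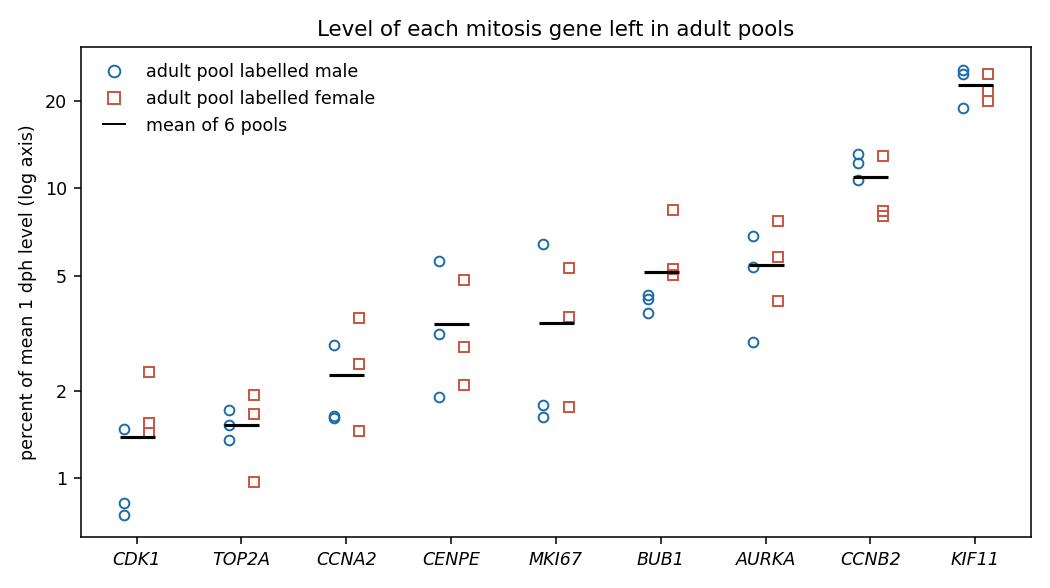
Level of each mitosis gene in each of the 6 adult pools, as a percentage of the mean of the 6 pools at 1 dph, on a log axis. Circles are adult pools labelled male, squares are adult pools labelled female and bars are means. Means range from 1.39% for CDK1 to 22.7% for KIF11.

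As a result the reads of the 9 genes were divided differently at each age. TOP2A made up 35.8% ± 0.634 of their summed reads at 1 dph and then 21.96% ± 1.68 at 20 dph, 14.2% ± 1.91 at 65 dph and 8.92% ± 1.73 in adults (SD, n = 6). KIF11 made up 13.2% ± 0.510, 33.9% ± 2.16, 45.3% ± 2.40 and 48.9% ± 6.002 at these ages in turn. The ratio of KIF11 to CDK1 reads within a pool had a median of 0.891 at 1 dph and then 3.81 at 20 dph, 9.03 at 65 dph and 15.4 in adults. Between 0.865 and 0.956 at 1 dph and between 7.78 and 31.0 in adults, it did not overlap between those ages. The ratio of BUB1 to TOP2A had a median of 0.417 at 1 dph and then 0.528 at 20 dph, 0.735 at 65 dph and 1.21 in adults.

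Male and female pools were compared at each age by the staged test. At 1, 20 and 65 dph none of the 9 genes was called, where 5.59%, 4.45% and 4.87% of tested genes were called in either direction at these ages in turn. In edgeR's test 0, 0 and 1 of the 9 had an unadjusted p under 0.05 at these ages, the 1 being CDK1 at 65 dph, where 10.3%, 9.30% and 8.88% of tested genes did. DESeq2's Wald test also called none of the 9. The largest of the 9 differences at 1 dph was a log2 fold change of -0.33 (SE 0.18) for AURKA, male minus female. All 9 values at this age were below 0, with a median of -0.12, where that of all tested genes was -0.02. The later ages, in order, had 4, 7 and 5 of the 9 values below 0. Such signs are not 9 separate observations, since the 9 genes were read in the same pools. Their summed level at 1 dph overlapped between the sexes, with 389, 372 and 312 cpm in male pools and 404, 433 and 332 in female pools. AURKA had 8.82, 9.12 and 7.47 cpm in male pools at 1 dph, against 10.4, 11.8 and 9.67 in female pools, without overlap. At 20 dph it had 1.30, 1.31 and 1.32 cpm in male pools, against 1.16, 1.09 and 0.983 in female pools. Neither difference was called (edgeR adjusted p = 0.339 and 0.757), nor was the change between them (log2 difference 0.61, SE 0.30, adjusted p = 0.742). At each age 1 of the 9 genes had male and female pools that did not overlap, beside 14.2%, 16.8%, 13.8% and 8.33% of tested genes from young to old.

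CDK1 had 1.13, 0.998 and 0.863 cpm in male pools at 65 dph, against 1.50, 1.78 and 1.41 in female pools. The lowest female pool thus lay above the highest male pool, with a log2 fold change of -0.62 (SE 0.28) that was not called (edgeR adjusted p = 0.152 by Holm's method). At 20 dph its log2 fold change was 0.37 (SE 0.20, adjusted p = 0.152), and this one was called once female replicate 2, with 4.56 cpm, was left out. The change of the sex difference from 20 to 65 dph was -0.98 on the log2 scale (SE 0.34, unadjusted p = 0.00864, edgeR adjusted p = 0.698). None of the 9 genes had a step that was called different between males and females, where 0%, 0% and 0.936% of tested genes were at the 3 steps. At these steps 0, 2 and 1 of the 9 had an unadjusted p under 0.05 in edgeR's test, where 6.39%, 6.81% and 7.17% of tested genes did.

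In the adult pools 1 of the 9 genes was called, where 2.15% of tested genes were called in either direction. BUB1 had 2.31, 2.07 and 2.40 cpm in the adult pools labelled male, against 2.79, 2.94 and 4.69 in those labelled female. The groups did not overlap, and female replicate 3 stood well above the rest. The log2 fold change was -0.62 (SE 0.21), with an edgeR adjusted p of 0.0251 by Holm's method within the gene, after an omnibus test that covers age as well as sex. It was 0.659 with Benjamini-Hochberg adjustment over all genes, by which 0.0432% of tested genes were called. The call was lost without female replicate 3 (log2 fold change -0.34, edgeR adjusted p = 0.435), male replicate 1 (-0.64, adjusted p = 0.0549) or male replicate 2 (-0.57, adjusted p = 0.103). Male replicate 2 is the adult pool whose Z-linked level lay within the range of younger males, and male replicate 1 had a level equal to that of female replicate 2. CDK1 had a larger estimate at lower counts, with 0.450, 0.808 and 0.408 cpm in the adult pools labelled male, against 0.781, 0.847 and 1.27 in those labelled female. These groups overlapped, and its log2 fold change of -0.79 (SE 0.36) was not called (edgeR adjusted p = 0.152), but CDK1 was called, and BUB1 was not, once male replicate 2 was left out. Female replicate 3 was the highest adult pool for 3 of the 9 genes and had a summed level of 25.5 cpm, the highest of the 6. Its summed level of 9 neural progenitor genes was 995 cpm, inside the range of 865 to 1020 cpm of the adult pools. That of the 5 oligodendrocyte lineage genes found was 1891 cpm, the highest of a range that starts at 1295 cpm. Its sums were also the highest of the 6 for young neuron markers (862 cpm, range from 742) and DNA replication genes (316, from 285). The same held for genes of chromosome condensation and cohesion (98.8, from 87.9). It was not the highest for the other lists of mitosis genes or for markers of mature neurons, astrocytes, endothelium and blood. Whether these take part in the difference was not tested.

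**Figure D4:**
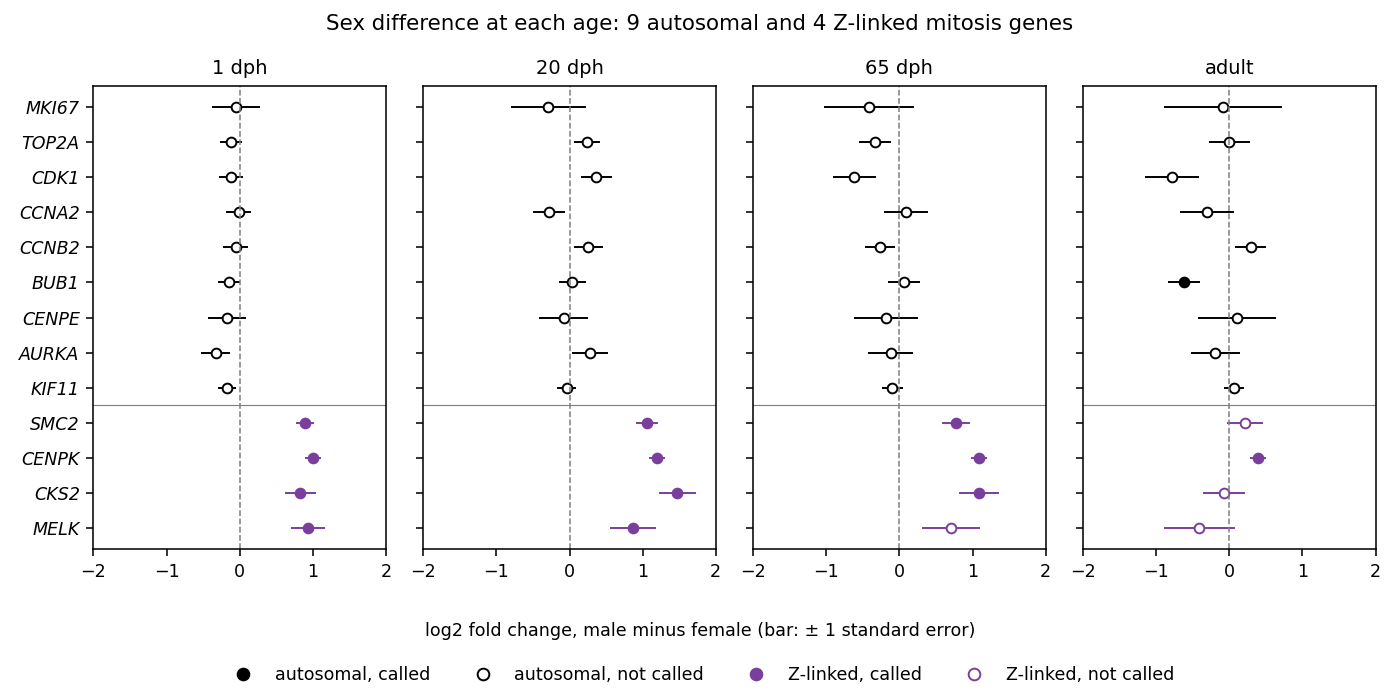
Log2 fold change between the sexes, male minus female, at each of the 4 ages for the 9 mitosis genes (black) and 4 further mitosis genes on the Z chromosome (purple), with bars of 1 standard error. Filled points were called by the staged edgeR test. In black only BUB1 in adults is filled, whereas SMC2 and CKS2 are filled at the 3 younger ages, CENPK at all 4 ages and MELK at 1 and 20 dph.

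None of the 9 genes lies on the Z chromosome, and they are spread over 6 autosomes. Of the other mitosis genes found, 4 lay on the Z chromosome, and all 4 were called higher in males at 1 age or more. From young to old, 5.59%, 4.45%, 4.87% and 2.15% of all tested genes were called in either direction. The share among Z-linked genes is not given here, and these 4 came from lists whose symbols were known mostly for genes that change. SMC2, a subunit of condensin, which folds chromosomes for division, had 131 ± 9.54 cpm in males and 70.7 ± 3.60 in females at 1 dph (SD, n = 3 each), 11.0 ± 0.644 against 5.28 ± 1.34 at 20 dph and 4.05 ± 0.531 against 2.39 ± 0.328 at 65 dph, with edgeR adjusted p-values of 2.78e-07, 3.89e-07 and 0.00049. In adults SMC2 had 1.75 ± 0.334 cpm in pools labelled male and 1.51 ± 0.189 in pools labelled female, and was not called (edgeR adjusted p = 0.356). CENPK, a kinetochore protein, had log2 fold changes of 1.00, 1.20, 1.08 and 0.40 from young to old and was called at all 4 ages. CKS2, a small partner of CDK1, was called at the 3 younger ages (log2 fold changes 0.83, 1.47 and 1.09) and had -0.07 in adults, and MELK, a kinase of dividing progenitors, was called at 1 and 20 dph (0.93 and 0.87). Of these 4 genes, the change of the sex difference from 65 dph to adulthood was called for CENPK (-0.69, SE 0.14, edgeR adjusted p = 0.0106) and not for SMC2, CKS2 or MELK (adjusted p between 0.223 and 0.788).

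The fall after hatching was shared by most other mitosis genes that could be found. Of 85 further symbols of mitosis, 40 were found, under 41 identifiers. From 1 to 20 dph 40 of the 41 entries were called lower and 1 higher, where 38.5% of tested genes were called lower. This count is no independent evidence of a shared fall, since symbols were known mostly for genes that change. Entries that reached 1 cpm at 1 dph alone could pass the filter only by being higher there. The median log2 fold change of the 41 entries was -2.62, beside -3.30 for the 9 genes and -0.03 for all tested genes. From 20 to 65 dph 26 were called lower and 1 higher (median -0.53), where 15.4% of tested genes were called lower. From 65 dph to adulthood 11 were called lower and 1 higher (median -0.24), where 10.7% of tested genes were called lower. The list named for mitosis thus holds a gene that moved the other way, CIT, citron kinase of the cleavage furrow, of which a form without the kinase is known in rodent neurons. CIT had 132 ± 12.9 cpm at 1 dph and then 776 ± 66.6 at 20 dph, 929 ± 58.0 at 65 dph and 948 ± 56.9 in adults (SD, n = 6).

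Among 14 kinetochore, checkpoint and anaphase genes, all 14 fell from 1 to 20 dph, where 38.5% of tested genes were called lower. CDC20, which turns on the destruction of cyclins at anaphase, fell most (log2 fold change -3.99, edgeR adjusted p = 7.05e-17) and retained 1.57% of its 1 dph level in adults. BUB3, a checkpoint protein that also serves outside mitosis, fell least (-0.64, adjusted p = 5.71e-10) and retained 58.8%. Among 14 spindle, motor and cytokinesis genes 13 fell, from -3.52 for NUSAP1, which bundles spindle fibres, to -1.49 for HMMR, a protein of the spindle poles. CENPA has no known chromosome and is counted with the 37 entries not assigned to the Z chromosome. Of these 37 entries, 1 was called for sex in adults by the staged test, which called 2.15% of all tested genes. It was NUSAP1, with 1.11 ± 0.278 cpm in pools labelled male and 1.90 ± 0.742 in pools labelled female (log2 fold change -0.76, edgeR adjusted p = 0.0261). Benjamini-Hochberg adjustment over all genes, by which 0.0432% were called, did not call it. Whether the staged call of NUSAP1 rests on 1 pool was not tested.

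All 7 entries for entry kinases, cyclins and regulators fell by 20 dph, where 38.5% of tested genes were called lower. Their log2 fold changes ran from -3.82 for CCNB3, cyclin B3, to -1.42 for the less changed of 2 identifiers that share the symbol GTSE1. How reads that fit both identifiers were assigned is not given in the sources used here, so that both values of GTSE1 are uncertain. All 6 genes of chromosome condensation and cohesion fell as well, from -3.66 for SGO1, which guards cohesin at the centromere, to -1.03 for STAG1, a cohesin subunit that also shapes chromatin between divisions. STAG1 was the gene called higher from 65 dph to adulthood (log2 fold change 0.28, edgeR adjusted p = 0.000866), with 65.5 ± 3.30 cpm in adults and 54.1 ± 3.88 at 65 dph (SD, n = 6 each). SMC2 fell at this step (-0.93, adjusted p = 7.96e-05), as did ASPM, a spindle pole protein of neural progenitors (-1.04, adjusted p = 0.000231), beside the -0.88 of TOP2A.

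Genes of DNA replication, the phase that precedes mitosis, fell after hatching as well. Of 38 listed genes 17 were found, and all 17 fell from 1 to 20 dph, with a median log2 fold change of -2.14. At that step 38.5% of tested genes were called lower. From 20 to 65 dph 9 of the 17 were called lower (median -0.31), beside 15.4% of tested genes. From 65 dph to adulthood 1 was called lower, TK1, a thymidine kinase, and 1 higher, TYMS, which makes thymidylate (median -0.05). At this last step 10.7% of tested genes were called lower. CDT1, which licenses origins of replication, fell most by 20 dph (-3.76) and retained 3.81% of its 1 dph level in adults, whereas POLD3, a subunit of DNA polymerase delta, fell least (-0.50) and retained 61.4%. PCNA, the sliding clamp of replication that also acts in DNA repair, retained 43.6%.

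**Figure D5:**
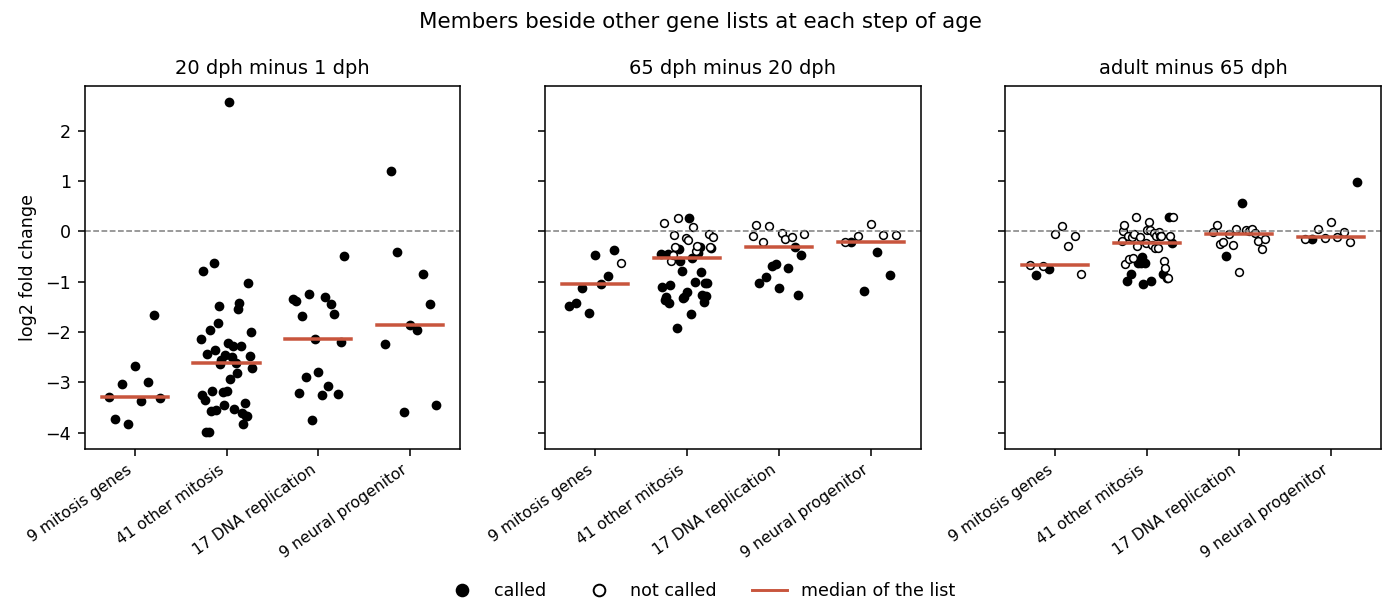
Log2 fold change of each gene at each step of age for the 9 mitosis genes, 41 entries of other mitosis genes, 17 DNA replication genes and 9 neural progenitor genes. Filled points had an edgeR adjusted p of at most 0.05, and lines are list medians. At the first step the medians are -3.30, -2.62, -2.14 and -1.85, and the point at 2.56 is CIT.

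Markers of cell types changed over the same interval. From 1 to 20 dph 38.5% of tested genes were called lower, and the share called higher is not given here. Marker symbols were known mostly for genes that change, so that counts of them are no independent evidence. Of 13 neural progenitor markers 9 were found, of which 8 fell and 1 rose from 1 to 20 dph (median log2 fold change -1.85), and their summed level ranged from 3739 to 4310 cpm at 1 dph and then 1406 to 1675 at 20 dph, 1035 to 1187 at 65 dph and 865 to 1020 in adults. EOMES, a marker of intermediate progenitors in mammals, fell most (-3.58), and SOX9 fell least (-0.41). The riser was SLC1A3, a glutamate transporter of radial glia and astrocytes, at 1.20. All 6 young neuron markers found fell (median -1.49), and all 11 entries for mature neuron markers rose (median 1.56). The tissue was thus marked as brain by its defining neuronal genes, of which 10 of 12 symbols were found, with a summed level from 9914 to 10418 cpm in adult pools and from 1616 to 2244 at 1 dph. Of 10 oligodendrocyte lineage markers 5 were found, MBP, CNP, PDGFRA and CSPG4 among them. The summed level of all 5 was between 108 and 173 cpm at 1 dph and between 2028 and 2633 at 20 dph. It was between 1525 and 1787 at 65 dph and between 1295 and 1891 in adults. A sum over 4 of the 5 was between 92.2 and 125 cpm at 1 dph, between 715 and 940 at 20 dph and between 578 and 830 in adults. From 20 dph on, 1 marker thus supplied most of the sum of all 5. Of the 5, 4 rose by 20 dph, and CSPG4, a marker of oligodendrocyte precursors, fell. The 2 astrocyte markers found, GLUL and S100B, rose as well, with a sum between 128 and 156 cpm at 1 dph and between 716 and 851 at 20 dph. Of 6 markers of blood and choroid plexus 1 was found, the globin HBAA, which had between 36.6 and 112 cpm at 1 dph and between 294 and 374 at 20 dph and also rose. None of the markers found was at 0 in all pools of an age, and no marker of microglia was found. The summed level of 4 endothelial markers was between 98.8 and 123 cpm at 1 dph and between 36.2 and 40.6 cpm in adults. From 1 to 20 dph 3 of the 4 were called lower. What part these shifts in cell types have in the levels of the mitosis genes was not tested.

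To find genes with the most similar course, the 8 group means of log2 cpm of each gene with a symbol were compared with the mean standardized course of the 9 genes. The 10 most similar genes outside the set had Pearson correlations between 0.9981 and 0.9997 over the 8 groups of 3 pools each. These groups share their libraries and a large first step, and the measure describes the shape of a course and not its size. They were VANGL2, PLPPR3, CCNB3, STK32B, RPSA, CDC20, MASP1, PRDX4, KDM8 and SEMA4B. Of these, CCNB3 and CDC20 are mitosis genes, and the share of the 1 dph level left in adults ranged from 1.57% for CDC20 to 53.3% for KDM8.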

How the data were processed

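RNA of 24 pools was sequenced, and the authors deposited raw counts of reads per Ensembl gene. Per the labels and the methods of the study, reads were checked with FastQC 0.10.1, aligned with STAR 2.5.2b to the zebra finch genome taeGut3.2.4 with its Ensembl annotation, sorted with SAMtools 0.1.18 and counted with HTSeq 0.6.0. Whether counting used strand is not given in the sources used here. Sex and age came from the labels, and 0 sample columns were left unassigned. The authors' own fold changes and p-values entered no result. Of the supplementary tables only identifiers, symbols and chromosomes were used, and p-values were looked at only to see how a shortened table was sorted.

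The counts entered edgeR 4.0.16, run in R 4.3.3. A gene was tested if 3 or more samples reached 1 cpm. After TMM scaling, edgeR's quasi-likelihood model was fitted to the 24 samples, with a mean for each of the 8 groups. Age and sex were tested in stages, an omnibus test over 5 contrasts with Benjamini-Hochberg adjustment at 0.05 and Holm's method within a gene. Steps of age, and their difference between the sexes, were tested with Benjamini-Hochberg adjustment over all genes. Standard errors are the log2 fold change divided by the root of the F statistic. For CCNA2 and AURKA the p-values of some contrasts were larger than these standard errors imply. Their printed errors and intervals can thus be too small. Tests were checked on simulated data in which few genes changed, in equal numbers up and down. That check does not cover a change of most genes, as in these data. Tables and figures were made with Python 3.11.15, numpy 2.4.6, pandas 2.3.3 and matplotlib 3.10.9.

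The library totals ranged from 16680575 to 28772178 reads. Floors and counting intervals cover counting error alone, because PCR copies of a molecule can be read more than once. Named genes were the 9 members, the genes of each list with the largest fall and the smallest change from 1 to 20 dph, Z-linked list genes called for sex and the 10 genes of most similar course. ASPM, TK1, TYMS, PCNA, STAG1 at the last step, CIT, SLC1A3, the glial markers and NUSAP1 in the sex comparison were named after their values were seen. The members and lists were chosen with earlier results of these data known. The alternatives were DESeq2 size factors, library totals, no filter, DESeq2 1.42.0, the likelihood ratio test, Benjamini-Hochberg adjustment per contrast, each sex alone, the 2 ages of a step alone and each sample left out. The check of Z-linked levels was added after the data were seen. No sequences are shown.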

Additional observations from a re-analysis of the deposited data

Results flagged for a closer look

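In 36 groups of 6 pools, 1 for each of the 9 genes and 4 ages, the highest or lowest pool was set against Dixon's 95% critical value, and 3 groups exceeded it. Chance alone marks about 1 in 20 such groups. CCNB2 at 65 dph had 3.18 cpm in male replicate 1, below the 5.04 to 5.92 cpm of the other 5 pools (ratio of gap to range 0.676), and 5.35 ± 0.348 cpm (SD, n = 5) without that pool. BUB1 in adults had 4.69 cpm in female replicate 3, above the 2.07 to 2.94 cpm of the others (0.669), and without it adults retained 4.49% of the 1 dph level. CENPE at 1 dph had 11.2 cpm in female replicate 1, above the 6.49 to 8.22 cpm of the others (0.630), and without it adults retained 3.70%.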

How the results depend on the processing

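The counts of called genes were 9 for age and 9 from 1 to 20 dph under all alternatives run, and the direction of no called change turned. From 20 to 65 dph 8 genes were called, 8 again with males alone and 4 with females alone. The estimates of the genes that lost the call in females were between -1.08 and -0.22 there, against -1.20 to -0.41 in males. From 65 dph to adulthood 2 were called, against 0 with males alone and 1 with females alone. A fit of 1 sex holds fewer pools, as many for males as for females. With each sample left out in turn, the last count ranged from 1 to 3, that of sex at 20 dph from 0 to 1 and that of sex in adults from 0 to 1. The call at 20 dph appeared for CDK1 without female replicate 2. In adults 1 gene was called in stages and 0 with Benjamini-Hochberg adjustment per contrast, and without male replicate 2 the gene called was CDK1 in place of BUB1. Other counts kept their value. For the age changes of single genes and the adult sex difference of BUB1, 1148 fold changes under an alternative stayed called or stayed uncalled. A further 13 lost the call and 3 gained it, each of the 3 being CCNA2 at the last step. Uncalled estimates could change sign. With males alone the last step was -0.23 for BUB1 and 0.23 for CCNB2, against 0.11 and -0.06 with both sexes. Of 18 shares left in adults under other scalings, 17 moved by less than the SD between pools, and that of KIF11 became 19.3% with library totals. All 9 shares were lower with library totals, such as 1.30% for TOP2A and 9.26% for CCNB2. The SD between pools does not measure such a common shift. Below about 0.2 cpm the depth shows only large changes. No paired analysis was possible because the pools carry unique numbers that no 2 groups share. Per the methods of the study, nestmates were spread at random over the age groups. Pools of different ages may thus hold relatives, which the tests do not take into account. The comparison of motif windows was not run, since no promoter sequence was used here.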
